A study of Homo sapiens with 12 samples.

Results

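The miRNA cargo of exosomes from cisplatin-treated CSC-like cells was compared with that of exosomes from untreated CSC-like cells. The cells are of MDA-MB-231, an established human breast adenocarcinoma line, and CSC-like stands for cancer stem cell-like. Treated CSC-like cells had received 56 µM cisplatin for 48 h, and untreated CSC-like cells had received none (3 libraries each). The same treatment had been given to the parental line, and those 6 libraries (3 treated, 3 untreated) are used here only where the responses of both populations are set against each other. All groups share the line and a culture medium with serum depleted of exosomes. How the CSC-like cells were sorted, and by which marker, is not given in the sources used here, and miRNA counts hold no protein marker with which to check the label. No source used here says that the replicates were grown as separate cultures, and the p-values therefore measure only the spread between libraries, which may be technical. Every miRNA that the deposited CSC-like table lists was taken, 114 of the 153 listed in the series, and 98 of them are listed for parental exosomes as well. The table lists miRNAs with at least 1 count in each group, so a miRNA seen in treated or in untreated exosomes alone is outside the comparison.

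Exosomes are small vesicles that form inside endosomes and are released when these fuse with the cell surface. They carry miRNAs, short RNAs that guide Argonaute proteins to messenger RNAs, mainly by pairing of the seed (bases 2 to 8 from the 5′ end), so that miRNAs with the same seed form a family with overlapping targets. Which miRNAs enter exosomes depends on their level in the cell and on sorting proteins such as hnRNPA2B1, which binds short motifs that include GGAG. Cisplatin, a platinum chemotherapy drug, links bases within and between DNA strands. In breast cancer, let-7 and miR-30 are known as families that restrain self-renewal, and miR-221 and miR-222 as a pair raised in triple-negative and mesenchymal tumours.

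The sequences of the miRNAs on which the comparison turns are those of RefSeq (GRCh38.p14), 5′ to 3′, with DNA letters and the seed in capitals. Of the 114 listed miRNAs 98 had an entry there, and the deposited sequence differed from it in 0. The first is the miRNA that passed the test. miR-221-3p and miR-222-3p show a shared seed and different 3′ parts, let-7f-5p carries the let-7 seed, and miR-4488 and miR-4516 are short G-rich entries that varied widely between libraries of 1 group. miR-148a-3p is a conserved miRNA whose level differed between the treated libraries, and miR-21-5p is the most abundant miRNA.
miR-3135b: gGCTGGAGcgagtgcagtggtg
miR-221-3p: aGCTACATtgtctgctgggtttc
miR-222-3p: aGCTACATctggctactgggt
let-7f-5p: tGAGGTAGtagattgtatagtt
miR-4488: aGGGGGCGggctccggcg
miR-4516: gGGAGAAGggtcggggc
miR-148a-3p: tCAGTGCActacagaactttgt
miR-21-5p: tAGCTTATcagactgatgttga

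Depth was low and unequal. Treated libraries held 429, 1877 and 1575 counts (replicates 1, 2 and 3), against 1526, 2172 and 2522 in untreated libraries. A share that a count of 0 allows (3 counts of the total) was up to 0.699% in treated replicate 1 and between 0.119% and 0.197% in the other libraries. Treated replicates 2 and 3 agreed within sampling noise (over 37 miRNAs, chi-square divided by its degrees of freedom was 1.18, p = 0.212), whereas either of them differed from treated replicate 1 (10.1 and 8.08) and the untreated replicates differed among themselves (4.58 to 13.9). They were therefore counted as 1 sample, which leaves n = 2 for treated and n = 3 for untreated exosomes in every mean and test unless stated. Treated replicate 1 and untreated replicate 2 stood apart from the rest in base composition. The 10 entries with a GC content of 70% or more took 18.9%, 2.88% and 4.44% of the counts in treated libraries, against 8.39%, 22.6% and 6.74% in untreated libraries. The Spearman correlation of shares over 29 miRNAs was 0.689 between treated replicate 1 and untreated replicate 2. It was 0.486 and 0.345 between treated replicate 1 and the other treated libraries. Untreated replicate 2 correlated about as well with its own group, at 0.703 and 0.693 with untreated replicates 1 and 3.

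The cargo was dominated by a few miRNAs in both groups. miR-21-5p, which represses PDCD4 and is encoded in an exon of VMP1 on chromosome 17, was the most abundant miRNA in all 6 libraries. It took 24.2%, 38.5% and 35.8% of the counts in treated libraries, against 25.6%, 24.1% and 38.8% in untreated libraries. The ranges overlap almost wholly, and its log2 fold change of treated over untreated exosomes was 0.02 ± 0.59 (SE), or 0.72 without treated replicate 1. By share, treated replicates 2 and 3 together held 37.25%, beside an untreated mean of 29.5%. miR-100-5p, which targets MTOR and is processed from an intron of MIR100HG on chromosome 11, took 18.9%, 15.98% and 16.3% in treated libraries, against 17.2%, 23.5% and 13.0% in untreated libraries. Its log2 fold change was -0.14 ± 0.63 (SE), and it turned to 0.31 without treated replicate 1 and 0.36 without untreated replicate 2. By share, however, treated replicates 2 and 3 together held 16.1%, below the untreated mean of 17.9%. The value of 0.31 thus depends on the scaling, which was estimated anew in each fit. The 5 most abundant miRNAs of each library together held 65.97% to 70.6% of the counts in treated libraries and 61.9% to 69.8% in untreated libraries.

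**Figure D1:**
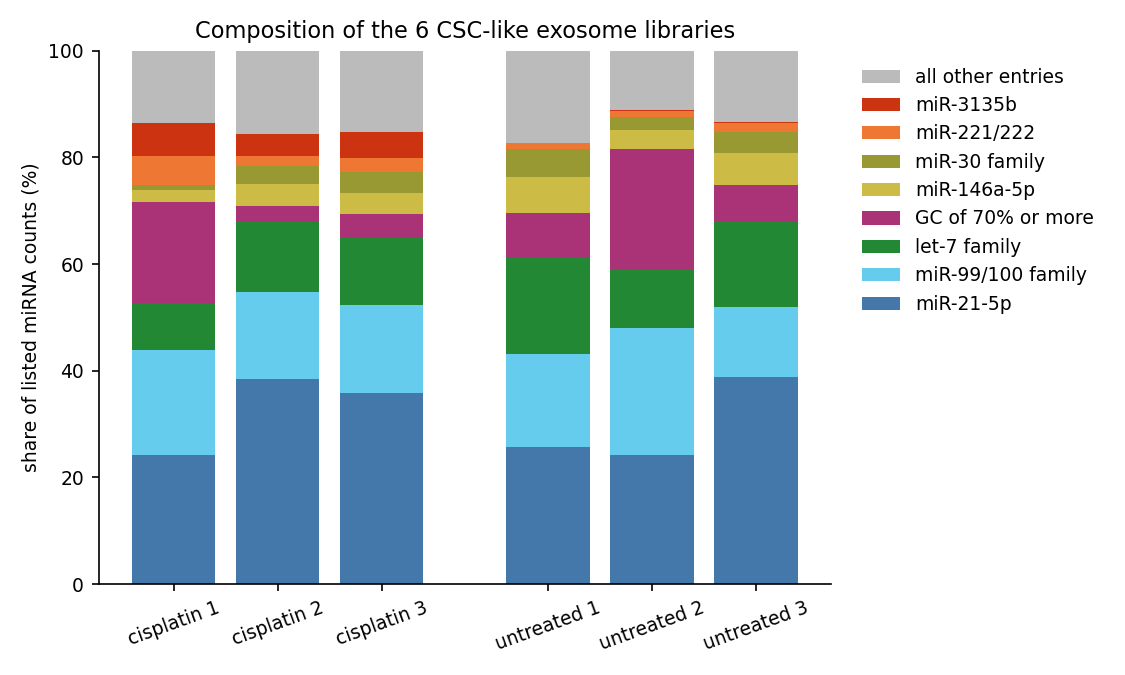
Share of all listed miRNA counts, in percent, taken by the main miRNAs and families in each of the 6 CSC-like libraries, treated libraries to the left of untreated ones. miR-21-5p takes 24.1% to 38.8% everywhere, and miR-3135b takes 4.21% to 6.29% in treated libraries, against 0.322% or less in untreated libraries.

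Of the 114 miRNAs, 29 passed the low-count filter, and they held 90.5% of the treated and 91.7% of the untreated counts. Of these 29, 1 passed the test (3.45%): miR-3135b was higher in treated exosomes, and 0 were lower (edgeR's quasi-likelihood test, Benjamini-Hochberg adjusted p under 0.05). At an unadjusted p under 0.05 there was 1 higher and 1 lower, and DESeq2's Wald test called 1. Fitted log2 fold changes lay above 0 for 13 and below 0 for 16 of the 29, with a median of -0.15. That median is 0.04 with DESeq2's size factors, so the zero point of small changes depends on the scaling. Fits with libraries left out estimated the scaling anew, so their values can differ from the shares in size and in sign. Shares describe the makeup of the cargo: the number of exosomes released and the miRNA held by each cannot be told apart.

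miR-3135b had 27, 79 and 76 counts in treated libraries, against 0, 7 and 5 counts in untreated libraries. These are shares of 6.29% (95% interval 4.19% to 9.03%, Clopper-Pearson), 4.21% (3.35% to 5.22%) and 4.83% (3.82% to 6.003%) in treated libraries, against 0% (0% to 0.241%), 0.322% (0.130% to 0.663%) and 0.198% (0.0644% to 0.462%) in untreated libraries. Every treated library lay far above every untreated one, and the intervals, which cover counting error only, do not meet. The mean share was 5.41% ± 1.26 in treated exosomes (SD, n = 2) and 0.174% ± 0.163 in untreated exosomes (SD, n = 3). The log2 fold change was 4.67 ± 0.88 (SE), with an adjusted p of 2.38e-05 in edgeR. With the 3 treated libraries kept separate it was 4.975, and the adjusted p was much larger (0.01115 in edgeR). The log2 fold change lay between 4.39 and 5.52 in all 15 alternatives, of which 3 ended the call. Of the fits that left out 1 library, these were the ones without untreated replicate 1 (4.39, adjusted p = 0.0545) and without untreated replicate 3 (5.07, adjusted p = 0.412), each of which leaves 2 untreated libraries.

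miR-3135b is a little-studied miRNA whose locus lies on the minus strand of chromosome 6 (chr6:32749952-32749973, GRCh38.p14), outside other annotated genes. Its mature sequence above, with a GC content of 68.2%, holds the letters GGAG inside the seed and lies within 2 mismatches of the start of RNY3, a Y RNA. Y RNAs are small structured RNAs that bind the Ro60 protein and are abundant in vesicles. In all, 5 of the 114 miRNAs lie within 2 mismatches of a structured RNA of the GENCODE annotation (5222 transcripts searched), and miR-1246 matches the spliceosomal RNA RNU2-1 with 0. Those 5 took 7.23%, 4.85% and 5.08% of the counts in treated libraries, against 1.31%, 1.20% and 0.872% in untreated libraries. miR-1246 alone had 4, 11 and 2 counts in treated libraries, against 12, 18 and 11 counts in untreated libraries, and its log2 fold change was -0.34 ± 0.97 (SE). The group total thus follows miR-3135b, while miR-1246 did not pass the test. Whether reads counted as miR-3135b came from its own locus or from a fragment of RNY3 was not tested, since only counts were analysed.

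**Figure D2:**
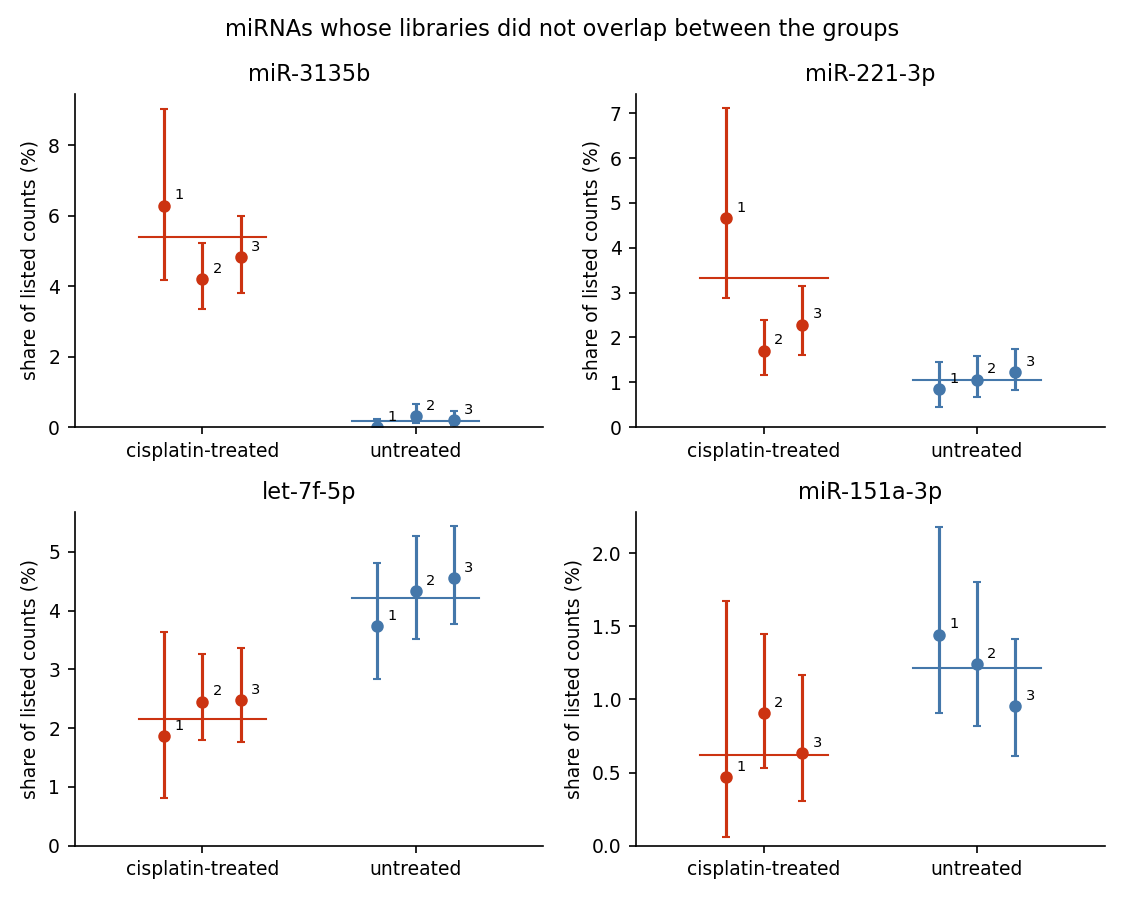
Share of counts (percent) of single miRNAs in each of the 6 CSC-like libraries, treated libraries to the left of untreated ones, with 1 point per library, its 95% Clopper-Pearson interval as a bar and the group mean (treated replicates 2 and 3 as 1 sample) as a line. The points of the groups do not overlap for miR-3135b and miR-221-3p, which are higher in treated libraries, nor for let-7f-5p and miR-151a-3p, which are lower.

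For 4 of the 29 tested miRNAs (13.8%) the 3 treated and 3 untreated libraries did not overlap in share. They were miR-3135b and miR-221-3p on the higher side and let-7f-5p and miR-151a-3p on the lower side. Apart from miR-3135b, none of them passed edgeR's test (adjusted p = 0.613 for miR-221-3p and 0.990 for the other two).

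miR-221-3p and miR-222-3p come from 1 transcript on the X chromosome, MIR222HG, and repress the cell cycle inhibitor CDKN1B and the estrogen receptor. miR-221-3p (chrX:45746180-45746202, minus strand, intron of MIR222HG) had 20, 32 and 36 counts in treated libraries, against 13, 23 and 31 counts in untreated libraries. As shares these are 4.66%, 1.70% and 2.29% in treated libraries, against 0.852%, 1.06% and 1.23% in untreated libraries. All treated libraries lay above all untreated ones, and the shallow treated replicate 1 was highest. The log2 fold change was 1.499 ± 0.80 (SE), positive in every alternative run (0.96 to 2.08, adjusted p 0.130 to 0.995), and 1.31 without treated replicate 1. miR-222-3p had 3, 4 and 5 counts in treated libraries, against 2, 2 and 11 counts in untreated libraries, too few to test. With both counted together the seed GCTACAT took 5.36%, 1.92% and 2.60% in treated libraries, against 0.983%, 1.15% and 1.67% in untreated libraries, a log2 fold change of 1.61 with an SE of 0.84 (adjusted p = 0.695 over the seeds in edgeR).

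The let-7 family, repressors of LIN28, RAS and HMGA2, is linked to differentiation. Together its 8 listed members took 8.86%, 13.2% and 12.6% of the counts in treated libraries, against 18.0%, 11.0% and 16.02% in untreated libraries. These shares overlap, since untreated replicate 2 lies among the treated libraries. Of the 8 members 5 were tested, 0 passed, and all 5 had log2 fold changes below 0 (median -0.53, beside -0.15 over all 29 tested). That direction is not steady in the fits: the median of the 5 is -0.25 without untreated replicate 2 and 0.00 without treated replicate 1. Each of these fits estimated the scaling anew. By share, treated replicates 2 and 3 lay below the untreated mean of 15.03% but above untreated replicate 2. let-7f-5p stood out among them, with 8, 46 and 39 counts in treated libraries, against 57, 94 and 115 counts in untreated libraries. Its mean share was 2.16% ± 0.423 in treated exosomes (SD, n = 2) and 4.21% ± 0.425 in untreated exosomes (SD, n = 3), and no treated library reached the lowest untreated one. Its log2 fold change was -1.001 with an SE of 0.79 (adjusted p = 0.990 in edgeR), and lay between -1.07 and -0.36 (without treated replicate 1) over the alternatives. By share, treated replicates 2 and 3 together held 2.46%.

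The remaining let-7 members overlapped between the groups. let-7i-5p, the most abundant, had shares of 4.20%, 7.78% and 7.11% in treated libraries, against 8.58%, 4.10% and 7.38% in untreated libraries. Treated replicate 1 and untreated replicate 2 were its lowest libraries, and the log2 fold change was -0.15 ± 0.70 (SE), or 0.57 without treated replicate 1. By share, treated replicates 2 and 3 together held 7.47%, beside an untreated mean of 6.69%. let-7g-5p, let-7b-5p and let-7a-5p had log2 fold changes of -0.72, -0.53 and -0.20, with standard errors of 0.83 to 0.95. miR-98-5p, let-7d-5p and let-7e-5p were too rare to test.

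The miR-30 family, whose seed GTAAACA is shared by 5 listed miRNAs, restrains self-renewal and mesenchymal genes such as SNAI1. It took 0.932%, 3.25% and 3.87% of the counts in treated libraries, against 5.31%, 2.26% and 3.97% in untreated libraries. The lowest share is that of treated replicate 1 and the untreated range spans the other 2 treated libraries. Of the 5 members 3 were tested and 0 passed: miR-30b-5p, miR-30d-5p and miR-30a-5p had log2 fold changes of -0.72, -0.70 and -0.34. These directions are not steady: without treated replicate 1 the values were -0.32, 0.03 and 0.59 in the same order, and miR-30a-5p turned sign in 5 of 15 alternatives. By share, treated replicates 2 and 3 together held 0.493%, 0.406% and 2.26%, against untreated means of 0.836%, 0.526% and 1.99%.

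miR-30c-5p, below the filter, had 0, 6 and 1 counts in treated libraries, against 6, 10 and 10 counts in untreated libraries. Its shares did not overlap between the groups, as in 3 of the 85 untested miRNAs, which are named here after their values were seen. The others are miR-23b-3p, lower in treated libraries (0, 0 and 1 counts, against 1, 5 and 4), and miR-4508, higher (2, 6 and 7, against 2, 5 and 1). miR-23b-3p was separated only by 0.0635% in treated replicate 3 against 0.0655% in untreated replicate 1, which is 1 count in each. miR-30c-5p and miR-23b-3p had 0 counts in treated replicate 1, where a count of 0 allows up to 0.699%. That is above their share in every untreated library, so a level like the untreated one was not detectable in that library.

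miR-146a-5p, a repressor of the NF-kappaB adaptors IRAK1 and TRAF6, had 10, 78 and 63 counts in treated libraries, against 104, 78 and 152 counts in untreated libraries, with a mean share of 3.20% ± 1.24 in treated exosomes (SD, n = 2) and 5.48% ± 1.68 in untreated exosomes (SD, n = 3). In share, only untreated replicate 2 fell among the treated libraries. The log2 fold change was -0.72 with an SE of 0.75 (adjusted p = 0.990 in edgeR), and it was -0.02 without treated replicate 1. By share, treated replicates 2 and 3 together held 4.08%, below the untreated mean. miR-151a-3p, encoded in an intron of PTK2, had 2, 17 and 10 counts in treated libraries, against 22, 27 and 24 counts in untreated libraries. Its mean share was 0.618% ± 0.215 in treated exosomes (SD, n = 2) and 1.21% ± 0.246 in untreated exosomes (SD, n = 3). The groups did not overlap, but the log2 fold change of -0.87 ± 0.89 (SE) is no larger than its error and was -0.18 without treated replicate 1. By share, treated replicates 2 and 3 together held 0.782%, below the untreated mean.

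**Figure D3:**
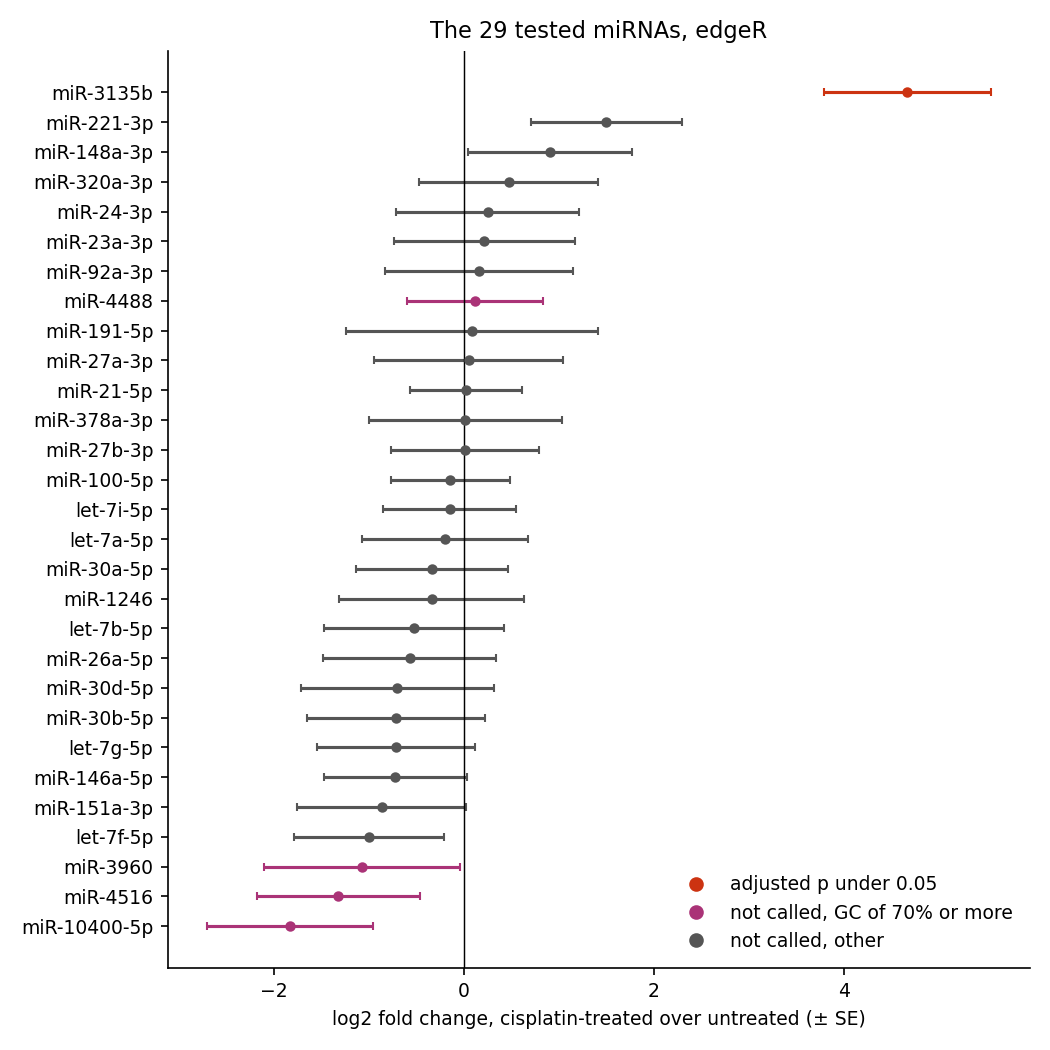
Log2 fold change of treated over untreated CSC-like exosomes, with standard errors, for the 29 tested miRNAs (edgeR). miR-3135b at 4.67 stands alone, and the others lie between -1.83 and 1.499.

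The short GC-rich entries spread widely between libraries of 1 group. The mature sequences of miR-3960, miR-4488, miR-4516 and miR-10400-5p have a GC content of 76.5% to 95%. miR-4516 (chr16:2133120-2133136, plus strand) lies in an intron of PKD1. miR-4488 (chr11:61508599-61508616, plus strand) had 51, 19 and 29 counts in treated libraries, against 34, 212 and 68 counts in untreated libraries. That is 11.9% of treated replicate 1 and 9.76% of untreated replicate 2, but 1.01% to 2.70% of the other 4 libraries. Its log2 fold change of 0.12 ± 0.72 (SE) is -1.32 without treated replicate 1 and 1.29 without untreated replicate 2, so these libraries decide its direction.

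miR-10400-5p had 9, 8 and 7 counts in treated libraries, against 33, 140 and 38 counts in untreated libraries, and its log2 fold change of -1.83 had an SE of 0.87 (unadjusted p = 0.0387, adjusted p = 0.561 in edgeR). miR-4516 had 10, 10 and 8 counts in treated libraries, against 39, 91 and 45 counts in untreated libraries, and its log2 fold change of -1.32 had an SE of 0.86 (adjusted p = 0.923). In share, both overlapped only through treated replicate 1. Single libraries moved both: miR-10400-5p was at -2.44 without treated replicate 1 and at -0.72 without untreated replicate 2, and miR-4516 at -1.97 and -0.76 in the same fits. miR-3960 had 3, 3 and 5 counts in treated libraries, against 12, 21 and 12 counts in untreated libraries, and its log2 fold change was -1.07 ± 1.03 (SE), or -0.59 without untreated replicate 2.

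The comparison was repeated without treated replicate 1 and untreated replicate 2, a choice made after seeing the data. It then sets treated replicates 2 and 3, kept as separate libraries although they agreed within sampling noise, against untreated replicates 1 and 3, so the spread among treated libraries is small by construction. Of 25 tested miRNAs 3 passed: miR-3135b was higher (log2 fold change 5.20 ± 0.52 SE, adjusted p = 0.00116 in edgeR). miR-4516 (-1.91 ± 0.34 SE, adjusted p = 0.0144) and miR-10400-5p (-1.92 ± 0.38 SE, adjusted p = 0.0177) were lower. The nearest of those that did not pass were miR-146a-5p (-0.55, adjusted p = 0.0679) and miR-148a-3p (1.43, adjusted p = 0.110). miR-4488, at -0.75, then lay on the same side as the other GC-rich entries. The part of base composition in these values was not tested.

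**Figure D4:**
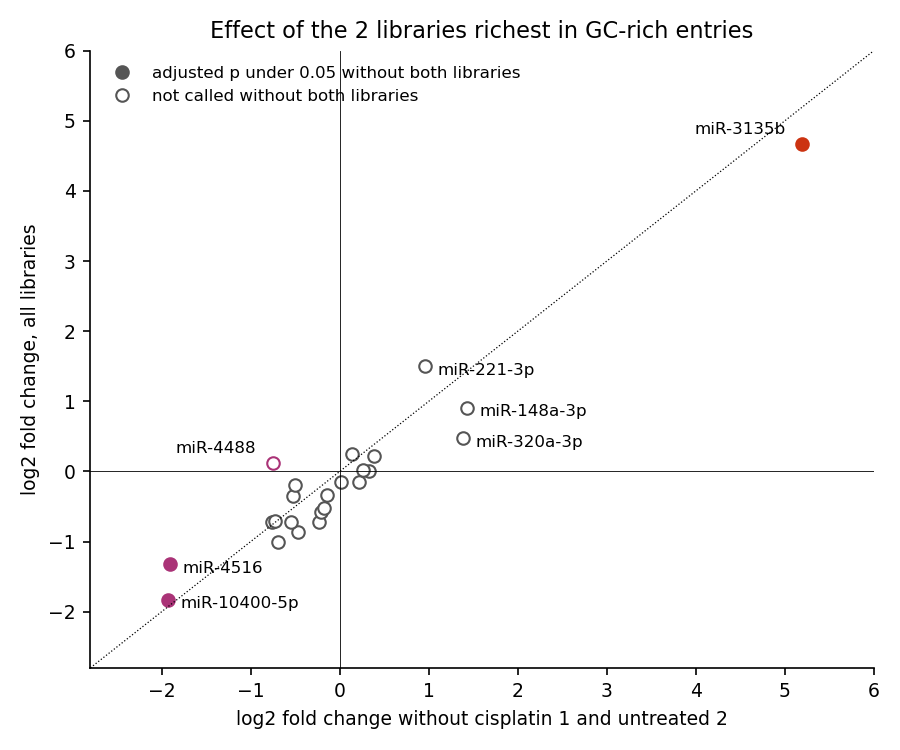
Log2 fold change of treated over untreated CSC-like exosomes without treated replicate 1 and untreated replicate 2 (horizontal axis) and with all libraries (vertical axis), 1 point per miRNA tested in both. Filled points passed the test without both libraries, and the dotted line marks equal values. miR-3135b is high on both axes, at 5.20 and 4.67, and miR-4488 changes side, at -0.75 and 0.12.

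Some conserved miRNAs were higher in treated replicates 2 and 3 but not in treated replicate 1. miR-148a-3p, a repressor of DNMT1, had 1, 23 and 32 counts in treated libraries, against 15, 9 and 10 counts in untreated libraries. miR-22-3p had 0, 15 and 16 counts in treated libraries, against 4, 4 and 11 counts in untreated libraries. miR-320a-3p had 0, 12 and 16 counts in treated libraries, against 8, 10 and 5 counts in untreated libraries. At 429 counts the shallow library allows up to 0.699% for a count of 0, so a level like the untreated one (0.294% on average for miR-22-3p and 0.394% for miR-320a-3p) was not detectable there. Log2 fold changes were 0.90 ± 0.86 (SE) for miR-148a-3p and 0.47 ± 0.94 (SE) for miR-320a-3p. Without treated replicate 1 they were 1.88 (adjusted p = 0.342 in edgeR) and 1.52 (adjusted p = 0.461), so neither passed the test in either fit. miR-22-3p did not pass the filter, and with the filter at 15 counts in all its log2 fold change was 0.98 ± 0.83 (SE).

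Summing counts by seed gave 85 seeds, of which 23 were tested and 12 of these had at least 2 listed miRNAs. Of the 23, 1 passed (4.35%), the seed GCTGGAG, which miR-3135b alone carries (log2 fold change 4.90 ± 0.95 SE, adjusted p = 4.83e-05 in edgeR). It did not pass without untreated replicate 3 (5.00, adjusted p = 0.0598). None of the 12 seeds with several members passed. The seed of miR-148a, miR-148b and miR-152 had a log2 fold change of 0.93 ± 0.85 (SE), that of miR-320a and miR-320c 0.72 ± 0.88 (SE) and that of miR-146a and miR-146b -0.54 ± 0.77 (SE). The seeds of miR-99/100 (0.11 ± 0.54 SE) and let-7 (-0.30 ± 0.58 SE), the families with most counts, had the smallest errors of those with several members.

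Other groups of miRNAs held few tested members. Of the miR-23, miR-27 and miR-24 clusters 4 of 6 listed members were tested, and their log2 fold changes lay between 0.01 and 0.25, with a median of 0.13 that was 0.91 without treated replicate 1. With library totals as the scaling, 1 of these 4 falls below 0. Of miRNAs named in the literature on cisplatin response 6 of 11 were tested, with 3 above and 3 below 0 and a summed share of 62.4% in both groups, of which miR-21-5p took 30.7 points in treated and 29.5 points in untreated exosomes. The miR-17-92 cluster and its paralogs had 1 tested member of 8 listed, miR-92a-3p, with a log2 fold change of 0.16 ± 0.99 (SE). miRNAs of breast stem cells had 3 of 10 tested and 0 called. Their summed share did not overlap between the groups, with 6.99%, 4.95% and 5.27% in treated libraries, against 4.78%, 3.27% and 3.73% in untreated libraries. The list holds miR-221-3p, and without it the shares were 2.33%, 3.25% and 2.98% in treated libraries, against 3.93%, 2.21% and 2.50% in untreated libraries, which overlap. miRNAs of the p53 response had 2 listed and 0 tested, with 4 counts in treated and 7 counts in untreated exosomes. MDA-MB-231 is a mesenchymal-like line, and the miR-200 family, which marks epithelial cells, had 9 counts in treated and 7 counts in untreated exosomes. Markers of blood cells and serum, which could be carried over from the medium, had 3 listed miRNAs with 5 counts in treated and 9 counts in untreated exosomes, and pluripotency clusters had 0 listed. The miR-10 and miR-125, miR-15, miR-29, miR-181 and miR-183 groups and miRNAs of muscle and neurons had 0 tested members. Of the entries grouped here as overlapping or resembling other structured RNA, 6 of 11 listed were tested, with 2 above and 4 below 0, and 1, miR-3135b, passed. Not all of these entries came near a structured RNA in the search above. That search took in no cytosolic tRNA, and whether it held whole ribosomal RNA repeats was not checked. Resemblance to RNA outside the transcripts searched was therefore not tested. Among the transcripts searched, the best matches of miR-4488, miR-4516 and miR-10400-5p had 3, 4 and 6 mismatches.

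The sorting motif GGAG occurs in 12 of the 114 listed miRNAs (10.5%), against 372 of 2370 mature human miRNAs in the RefSeq table (15.7%), searched on the mature strand. These 12 took 11.0%, 6.50% and 6.60% of the counts in treated libraries, against 4.72%, 7.14% and 3.57% in untreated libraries. Without miR-3135b the shares are 4.66%, 2.29% and 1.78% in treated libraries, against 4.72%, 6.81% and 3.37% in untreated libraries. With miR-3135b the treated libraries had the higher mean, 8.75% in treated and 5.14% in untreated exosomes. Without it every treated library lay below untreated replicates 1 and 2, treated replicate 1 only just. Treated replicate 1 lay above untreated replicate 3, so the groups overlap. A match to these letters is a description and shows no binding.

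The 85 untested miRNAs were rare: their median was 6 counts over the 6 libraries, 30 had under 5 counts in all, and none had over 16 counts in a library. Raising the number of tested miRNAs to 51, by a filter of 15 counts in all, left 1 call. Among those added were miR-7704 (log2 fold change 0.64), miR-30c-5p (-1.40 ± 0.96 SE), miR-423-5p (-0.40) and miR-10a-5p (0.09). Changes in such miRNAs were not detectable at this depth, which does not show that they are absent.

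The response of CSC-like exosomes was set against that of parental exosomes in 1 model with an interaction term, over 48 of the 98 miRNAs listed for both. Treated replicates 2 and 3 were summed in this model for CSC-like exosomes, but not for parental exosomes. The parental pair differed (chi-square divided by its degrees of freedom 1.48, p = 0.01225). Either of that pair differed far more from parental treated replicate 1 (16.1 and 16.4). Of the 48, 1 differed (2.08%), again miR-3135b. In parental exosomes it had 6, 6 and 5 counts in treated libraries, against 1, 10 and 1 counts in untreated libraries. Its mean share there was 0.129% ± 0.0392 in treated exosomes and 0.144% ± 0.203 in untreated exosomes (SD, n = 3 each), so the level of a few counts resembles that of untreated CSC-like exosomes. The response in CSC-like exosomes exceeded that in parental exosomes by 5.09 ± 1.49 on the log2 scale (SE, adjusted p = 0.0358 in edgeR). It was positive in all 19 alternatives (2.88 to 5.58), and 10 of them ended the call. It was smallest without parental untreated replicate 2, which holds 10 of the 12 untreated parental counts (2.88, adjusted p = 0.465). Leaving out 1 library ended the call for all 3 untreated CSC-like libraries, treated CSC-like replicate 1, all 3 treated parental libraries and parental untreated replicate 2, with adjusted p up to 0.465.

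Among the other miRNAs 0 passed the interaction test, but miR-30b-5p did in 4 of 19 alternatives. miR-7704 (3.70 ± 1.34 SE, adjusted p = 0.142), miR-30b-5p (-3.16 ± 1.23 SE, adjusted p = 0.166), miR-100-5p (1.86 ± 0.76 SE, adjusted p = 0.183) and miR-99b-5p (2.67 ± 1.29 SE, adjusted p = 0.372) came next in edgeR's test. In parental exosomes miR-30b-5p had 19, 21 and 21 counts in treated libraries, against 1, 1 and 3 counts in untreated libraries, and its difference lay between -4.03 and -2.86 in all alternatives. It passed with library totals (-3.74, adjusted p = 0.0283), with 3 separate treated libraries (-3.62, adjusted p = 0.0369) and without treated CSC-like replicate 2 (-3.95, adjusted p = 0.0306) or 3 (-3.77, adjusted p = 0.0337). miR-221-3p had a difference of 2.54 ± 1.51 (SE, adjusted p = 0.605). In parental exosomes it had shares of 0.604%, 1.13% and 0.561% in treated libraries, against 1.13%, 0.491% and 1.15% in untreated libraries, which overlap. let-7f-5p differed by -1.26 (adjusted p = 0.872). Its parental shares were 3.58%, 4.34% and 6.24% in treated libraries, against 0.0567%, 3.89% and 4.34% in untreated libraries, where untreated replicate 1 lies far below the rest.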

How the data were processed

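Per the labels' protocols, exosomal RNA was isolated with a column kit for exosomes and sequenced as small RNA libraries. Cutadapt and FastQC are listed in the submitters' processing notes. Aligner, build and miRNA release: not given in the sources used here. The authors deposited whole read counts per mature miRNA, not normalized per the file headers, in 1 table per population. Their fold and p-value columns were not used, and 1 line of each table was not analysed here.

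Listed totals (429 to 2522 counts) served as library sizes. Replicates were compared by chi-square where a pair held at least 10 counts of a miRNA, and treated replicates 2 and 3 were summed. The test was the quasi-likelihood test of edgeR 4.0.16 under R 4.3.3 with limma 3.58.1, after filterByExpr (minimum count 10, minimum total 15) and TMM, with Benjamini-Hochberg adjustment over all tested miRNAs of a fit and a threshold of 0.05. Standard errors come from the fold change and the F statistic. The same fit was made on counts summed by seed, and as an interaction over the 4 groups. The fits were tested on simulated data. Intervals are Clopper-Pearson at 95% and, like the floor of 3 counts, cover only the error of counting, as reads had no stated molecular identifiers. DESeq2 1.42.0, other scalings and filters, single libraries left out (without treated replicate 1 the summed pair is a lone sample, assumed to vary like the untreated ones) and a replicate block were alternatives. The miRNAs named are those called or with an unadjusted p under 0.05, the 10 with the highest mean share, the 5 highest and 5 lowest fold changes, the 5 untested with most counts, the 5 that differed most between treated replicate 1 and the other treated libraries, and members of described lists. Not every one of these is given with values, and miRNAs with groups that do not overlap, the next ones in the interaction test and passenger arms were added. The members and lists were chosen with earlier results of these data known.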

Additional observations from a re-analysis of the deposited data

Results flagged for a closer look

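The response of miR-3135b to cisplatin differed between CSC-like and parental exosomes in the main fit, a call that 10 of 19 alternatives ended. The log2 fold change of treated over untreated exosomes was higher by 5.09 ± 1.49 (SE) in CSC-like than in parental exosomes, by an interaction term in edgeR's quasi-likelihood test (adjusted p = 0.0358 over 48 miRNAs). Treated CSC-like libraries had 27, 79 and 76 counts, against 0, 7 and 5 counts in untreated ones. Treated parental libraries had 6, 6 and 5 counts, against 1, 10 and 1 counts in untreated ones. The difference lay between 2.88 and 5.58 over the alternatives, with an adjusted p between 0.00677 and 0.465.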

How the results depend on the processing

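The number of miRNAs called in CSC-like exosomes was 1 and stayed 1 in 11 of 15 alternatives. It was 0 to 1 with single libraries left out (0 without untreated replicate 1 or 3) and 3 without untreated replicate 2 and treated replicate 1. The number of seeds called was 1, and 0 to 1 with single libraries left out. The number of miRNAs whose response differed between the populations was 1 and held in 5 of 19 alternatives. It was 0 with at least 15 counts as the filter, 2 with library totals, 2 with 3 separate treated libraries and 0 to 2 with single libraries left out. The cause of these changes was not tested, except that leaving out a library lowers the number of samples.

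Same-numbered libraries did not deviate together (correlations of deviations from the group means -0.477, -0.505 and 0.201), and not every library correlated best with its own number. With 3 libraries in a group the deviations are tied to each other, so this check cannot exclude a shared batch or culture. Whether same-numbered libraries are paired is not given in the sources used here. With the replicate block, the calls were 0 in CSC-like exosomes (miR-3135b 5.15, adjusted p = 0.230), 1 among seeds and 0 for the difference between populations.

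Of 29 tested miRNAs 14 kept their sign in every alternative and 15 turned in at least 1, and 0 calls reversed. With library totals of 429 to 2522 counts and n = 2 treated samples, standard errors were 0.59 or more on the log2 scale, so small changes were not detectable.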

Other observations

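Passenger arms of abundant miRNAs had few counts in CSC-like exosomes. miR-21-3p, the passenger arm of miR-21, had 0, 0 and 4 counts in treated libraries, against 0, 0 and 1 counts in untreated libraries, beside 104, 722 and 564 counts of miR-21-5p in treated libraries and 391, 524 and 978 counts in untreated libraries. miR-30a-3p had 0, 1 and 2 counts in treated libraries, against 3, 2 and 1 counts in untreated libraries.

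The number of listed miRNAs seen was close between the groups once depth was made equal. The list leaves out any miRNA seen in treated or in untreated exosomes alone, which brings the groups closer by construction. The numbers therefore cannot show whether the groups differ in how many miRNAs they hold. At 429 counts per library, 61, 54.9 and 50.6 miRNAs are expected in treated libraries, against 57.4, 48.5 and 51.0 in untreated libraries.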
